A study of Homo sapiens with 6 samples.

Results

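A set of 9 interferon response genes was followed among the 60708 genes counted in each library. The set was given by name as interferon-induced and RNA-sensing genes and was not chosen by expression level, but earlier results of these data were known. They fall into 3 sensors of foreign RNA (IFIH1, EIF2AK2 and OAS1), the IFIT family (IFIT1, IFIT2 and IFIT3) and 3 other induced effectors (ISG15, MX1 and IFI6). Their counts were taken from Ago-RIP-seq of the MDA-MB-231 line, cultured human breast cancer cells of the triple-negative type. In this assay the protein AGO2 is pulled down with the RNA bound to it (AGO2-IP), and what stays in solution is the flow-through. Cells were collected 18 hours after transfection with 25 nM of a synthetic mimic of miR-99b-5p or of a scrambled oligonucleotide (control). The mimic was sequenced as 2 AGO2-IP and 2 flow-through libraries, labelled as biological replicates 1 and 2, and the control as 1 AGO2-IP and 1 flow-through library. Both arms were transfected and no untransfected library was analysed here, so the comparison is between 2 oligonucleotides and not between transfected and resting cells.

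Double-stranded RNA in the cytosol is a signal of viral infection. Sensors such as IFIH1 (also called MDA5) respond to it by switching on type I interferon genes, and secreted interferon then acts through its receptor, JAK kinases and transcription factors to induce a large set of antiviral genes. These factors bind a promoter element, the interferon-stimulated response element (ISRE). Most of these genes are kept low in unstimulated cells, and transfected RNA duplexes are known to induce them in some cell types.

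The ISRE letters were searched in the promoters because they are what ties these genes to one pathway. The core GAAANNGAAA, read on both strands from 250 bases before to 50 bases after the transcription start, was found in 7 of the 8 member promoters given by RefSeq (GRCh38.p14). It was found in 36 of 76 promoters of other interferon pathway genes (47.4%) and in 996 of all 27305 promoters (3.65%). OAS1 had no match, and IFIT2 has no entry in the promoter table. The lines below give 1 match from each of 5 members, 5′ to 3′ on the gene's strand, with the matching letters in capitals. A match on the opposite strand reads as the reverse complement of the core.
IFIT1, chr10:89392512-89392537, plus strand: ctttccccTTTCGGTTTCcctaggtt
IFIT3, chr10:89327867-89327892, plus strand: taaattagTTTCACTTTCcagtttcc
ISG15, chr1:1013382-1013407, plus strand: gggaaaggGAAACCGAAActgaagcc
IFI6, chr1:27672290-27672315, minus strand: agagagggGAAAATGAAActgcagag
IFIH1, chr2:162318688-162318713, minus strand: agagaatcGAAACAGAAAccaaagtc
These matches ended 93 (IFIT1), 112 (IFIT3), 97 (ISG15), 105 (IFI6) and 11 bases (IFIH1) before the start. IFIH1 and IFI6 held 3 matches each, and IFIT1, IFIT3 and ISG15 held 2 each, of which some overlapped. The single matches of EIF2AK2 and MX1 lay across the start and just after it, and they ended 4 and 21 bases into the transcript. The other element searched, the interferon-gamma activation site letters TTCNNNGAA, was present in the OAS1 promoter only among the 8, against 19 of the 76 other pathway promoters and 7.88% of all promoters.

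The transfected mimic carries the sequence of mature miR-99b-5p, 22 nucleotides encoded at chr19:51692618-51692639 on the plus strand. It is shown with its seed, bases 2 to 8, in capitals, because a transcript that pairs with bases 2 to 7 holds the letters ACGGGT.
miR-99b-5p: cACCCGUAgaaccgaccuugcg
These 6 letters were present in the canonical GENCODE transcripts of 3 of the 9 members (EIF2AK2, IFIT2 and IFIT3) and in 14.9% of 19960 protein-coding transcripts. Each of the 3 had 1 match in its 3′ untranslated region, where 5.65% of protein-coding transcripts had one, and IFIT3 had another in its coding part. None of them extended to pairing with bases 2 to 8. The matches of IFIT2 and IFIT3 are shown with 10 bases on each side, on the transcript strand and with GRCh38 coordinates.
IFIT2, 3′ untranslated region, last of 2 exons, chr10:89308012-89308037: gctagaagcgACGGGTacaaaaagca
IFIT3, 3′ untranslated region, last of 2 exons, chr10:89340166-89340191: ggtggttgtgACGGGTaggacgatag
IFIT3, coding part, last of 2 exons, chr10:89339440-89339465: aactgtttcaACGGGTgttggaatcc
In the IFIT2 and IFIT3 untranslated regions the match is followed by an A, opposite the first base of the microRNA. Across the genes tested, the 797 with such a match in the 3′ untranslated region had a median log2 mimic over control ratio of 0.04 in the AGO2-IP, against 0.05 for the 11101 protein-coding genes without one. The same medians were 0.26 and 0.17 in the flow-through. For mimic AGO2-IP over mimic flow-through they were 0.054 (787 genes) and -0.052 (10960 genes). A match of this length is a description of letters and not a measured site.

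The libraries differed in more than the oligonucleotide. Read pairs counted on genes came to between 38022779 and 48544756 in the mimic libraries and to 8076375 (AGO2-IP) and 7772149 (flow-through) in the control libraries. In the control libraries 76.7% and 73.7% of read pairs mapped to several places, against 2.38% to 19.2% in the mimic libraries, and mitochondrially encoded genes took 3.48% and 43.4% of gene counts, against at most 0.125%. Treatment and these differences between library sets cannot be told apart in any comparison of mimic with control. The mimic flow-through replicates differed from each other with transcript GC content (Spearman's rho -0.751 over 11898 protein-coding genes; genes are no replicates of each other), whereas the mimic AGO2-IP replicates did not to that degree (rho -0.01). The cell line was checked against its markers. AXL, CAV1, CD44, S100A4 and VIM were detected at 46.4 to 2272 CPM (counts normalised to library size and TMM factor) in every library, and ESR1 and PGR stayed at or below 0.825 and CDH1 at or below 3.30. ERBB2, which was listed as low for this line, stood at 34.1 to 143 normalised CPM and EPCAM at 3.20 to 9.79. AGO2 mRNA was present in all 6 libraries, at 162 to 589 normalised CPM. The study's methods describe 2 biological replicates of AGO2-IP for each condition and mention no flow-through libraries. Its supplement lists the control libraries without a fraction, so their fractions rest on the sample labels. Those labels give 1 control AGO2-IP and 1 control flow-through, and every comparison with a control depends on them.

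Levels are given below as this normalised CPM. Per kilobase of the canonical transcript, the mean level over the 6 libraries was highest for ISG15 (71.7) and IFIT3 (18.5), followed by IFIT2 (9.93), EIF2AK2 (8.13), IFIT1 (3.99), MX1 (3.47), IFI6 (2.45), IFIH1 (1.07) and OAS1 (0.787). Between libraries the level per kilobase ranged from 12.2 to 195 for ISG15 and from 5.40 to 44.8 for IFIT3, so neighbours in this order overlapped. IFIH1 varied least, from 0.812 to 1.26. The ligand genes were close to absent. The 7 interferon genes examined (IFNB1, IFNA1, IFNA2, IFNE, IFNL1, IFNL2 and IFNL3) had 80 read pairs in all 6 libraries together and at most 11 in any one library, with 9 in total on IFNB1, and none passed the filter for testing.

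**Figure D1:**
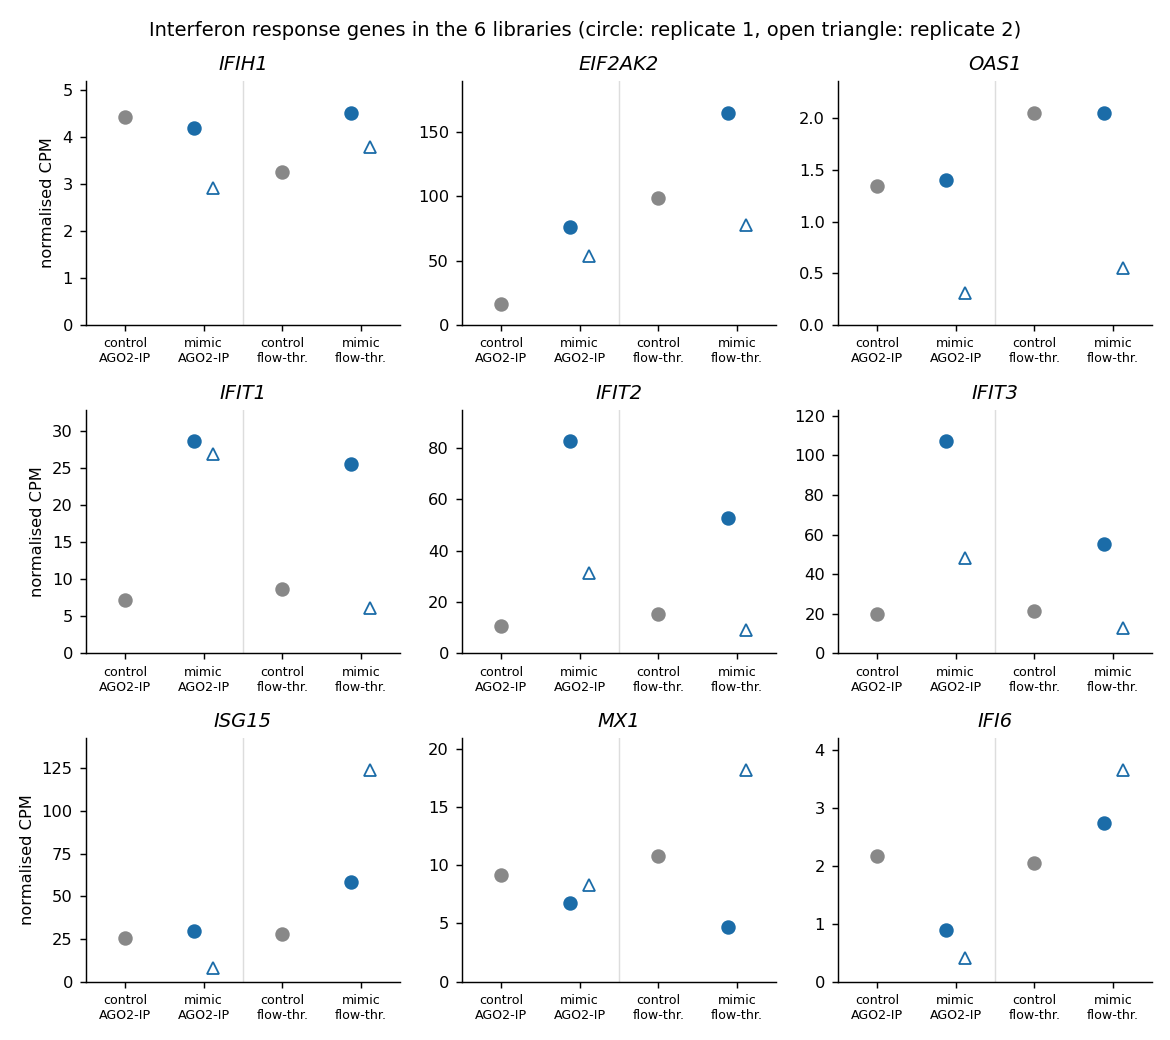
Normalised CPM (vertical axes, linear and starting at 0, each gene on its own scale) of the 9 genes in the control (grey) and mimic (blue) libraries of the AGO2-IP (left of each panel) and the flow-through (right), with 1 point per library. Both mimic AGO2-IP points of EIF2AK2 and of the 3 IFIT genes stand above the control point, whereas in the flow-through the control point lies between the mimic replicates for these 4 genes.

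Of the RNA sensors, EIF2AK2 was the one at least 2-fold higher with the mimic in the AGO2-IP, a difference that was not called. EIF2AK2 (chr2:37099210-37157522, minus strand; GRCh38, GENCODE 44, as for the genes below) encodes PKR, a kinase that is activated by double-stranded RNA and halts translation by phosphorylating eIF2 alpha. Its normalised CPM was 76.1 and 53.2 in the mimic AGO2-IP replicates and 16.4 in the control AGO2-IP, so both mimic libraries were above the control. In the flow-through it was 165 and 77.8 with the mimic and 98.3 in the control, which lay between the replicates. The log2 fold change of mimic over control was 1.98 ± 0.852 (SE) in the AGO2-IP, with an unadjusted p of 0.0393 and an adjusted p of 0.610, and 0.30 ± 0.778 in the flow-through. With the trend on GC content removed, the AGO2-IP value was 1.14. It was 0.052 where both control libraries stood as 1 control group, and the flow-through value was then 1.06. The log2 ratio of control AGO2-IP over control flow-through was -2.78 for EIF2AK2, scaled within that pair, and -2.58 from the normalised CPM above, a ratio of single libraries that carries no test. Only EIF2AK2, IFIT3 and ISG15 had enough counts in the control pair for this ratio, and scaled within the pair the other values were -0.31 (IFIT3) and -0.33 (ISG15), while 18.1% of the genes in that pair were lower by at least 2-fold in the AGO2-IP.

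IFIH1 and OAS1 were scarce. IFIH1 (chr2:162267074-162318684, minus strand) is the helicase that recognises long double-stranded RNA. It had 4.20 and 2.91 normalised CPM in the mimic AGO2-IP against 4.43 in the control, and 4.51 and 3.78 in the mimic flow-through against 3.25. The libraries thus lay on opposite sides of the control in AGO2-IP and flow-through, by less than 1 log2 unit in each case. OAS1 (chr12:112905856-112933219, plus strand) makes the 2′-5′ oligoadenylates that activate RNase L. It had 1.40 and 0.312 in the mimic AGO2-IP against 1.34, and 2.05 and 0.550 in the mimic flow-through against 2.05. The replicates of OAS1 differed from each other more than either group differed from its control. Its control values rest on 13 and 12 read pairs, and 26.6% of its strand-assigned read pairs were left out of the unstranded count because of an overlapping gene on the opposite strand.

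The IFIT genes showed one shared pattern. IFIT proteins have tetratricopeptide repeats, and IFIT1 binds RNA whose cap lacks the methylation of host mRNA, helped by IFIT2 and IFIT3. The 3 genes lie side by side on the plus strand of chromosome 10, IFIT2 at chr10:89283694-89309271, IFIT3 at chr10:89327307-89377473 and IFIT1 at chr10:89392546-89406487. IFIT1 stood at 28.6 and 26.9 normalised CPM in the mimic AGO2-IP against 7.22 in its control. IFIT2 had 82.7 and 31.3 against 10.6, and IFIT3 had 107 and 48.1 against 19.998. All 6 mimic AGO2-IP values were above their controls, and the replicates of IFIT1 lay closest together. The flow-through looked different. IFIT1 had 25.5 and 6.15 there with the mimic and 8.72 in the control, IFIT2 had 52.9 and 9.26 against 15.4, and IFIT3 had 55.2 and 12.9 against 21.4. In each case replicate 1 was above the control and replicate 2 below it. The log2 fold changes in the AGO2-IP were 1.94 ± 1.04 for IFIT1, 2.42 ± 1.16 for IFIT2 and 1.96 ± 1.04 for IFIT3 (SE), with adjusted p of 0.674, 0.647 and 0.674. With the trend on GC content removed they were 1.36, 1.82 and 1.62, and with both control libraries as 1 group 1.70, 2.03 and 1.81. In the flow-through they were 0.86 ± 0.986, 1.01 ± 1.08 and 0.67 ± 0.972, and each adjusted p was close to 1. Without mimic flow-through replicate 1 these 3 values were -0.52, -0.75 and -0.75.

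The remaining effectors did not share that pattern. ISG15 (chr1:1001138-1014540, plus strand) is a ubiquitin-like protein that is attached to other proteins after interferon treatment. It had 29.9 and 7.77 normalised CPM in the mimic AGO2-IP against 25.9 in the control, and 58.5 and 124 in the mimic flow-through against 28.0. Both flow-through libraries of the mimic were above the control, and the log2 fold change there was 1.70 ± 0.994 (SE, adjusted p close to 1), against -0.46 ± 0.901 in the AGO2-IP. MX1 (chr21:41420020-41470071, plus strand) is a dynamin-like GTPase that blocks influenza viruses. It had 6.73 and 8.31 in the mimic AGO2-IP against 9.17, and 4.65 and 18.2 in the mimic flow-through against 10.8. Its flow-through replicates fell on either side of the control, and 24.3% of its strand-assigned read pairs were left out because of opposite-strand genes. IFI6 (chr1:27666064-27672212, minus strand) encodes a small hydrophobic protein. It had 0.892 and 0.416 in the mimic AGO2-IP against 2.16, and 2.74 and 3.66 in the mimic flow-through against 2.05. Both IFI6 replicates were below the control in the AGO2-IP and above it in the flow-through, with log2 fold changes of -1.72 ± 1.02 (adjusted p 0.709) and 0.64 ± 1.09. The control values of IFI6 rest on 21 and 12 read pairs.

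Mimic and control were compared by edgeR's quasi-likelihood test over the 13319 genes that summed to 200 counts or more, which all 9 members did. Calls required a 2-fold or larger difference together with an adjusted p no greater than 0.05. With 1 control library per fraction, the fit assumes that the control varies like the mimic libraries. No member was called in the AGO2-IP, where 0.165% of all genes were called, nor in the flow-through, where 0.113% were called, and every gene called in either fraction was lower with the mimic. By DESeq2's Wald test, no member was called in either fraction either. An unadjusted p under 0.05 was reached by 1 member in the AGO2-IP with edgeR (EIF2AK2), where 1050 genes did, and by 4 members with DESeq2 (EIF2AK2, IFIT1, IFIT2 and IFIT3), where 12% of all genes did. In the flow-through no member did with either tool.

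Counted by size alone, 4 of the 9 members (EIF2AK2, IFIT1, IFIT2 and IFIT3) were at least 2-fold higher with the mimic in the AGO2-IP, against 19.8% of all genes, and 1 (IFI6) was at least 2-fold lower, against 16.9%. In the flow-through 2 members (ISG15 and IFIT2) were at least 2-fold higher, against 15.4%, and none was 2-fold lower, against 7.49%. The median log2 fold change of the members was -0.29 in the AGO2-IP, beside 0.08 over all genes, and 0.64 in the flow-through, beside 0.19. The AGO2-IP median describes none of the members well, since 4 values lay between 1.94 and 2.42 and the other 5 between -1.72 and -0.29. Both mimic AGO2-IP libraries were above the control for 4 members, against 41.3% of all genes, and below it for 3 (IFIH1, MX1 and IFI6), against 39.2%. Both mimic flow-through libraries were above the control for 3 members (IFIH1, ISG15 and IFI6), against 32.1% of genes, and below it for none, against 21.2%.

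**Figure D2:**
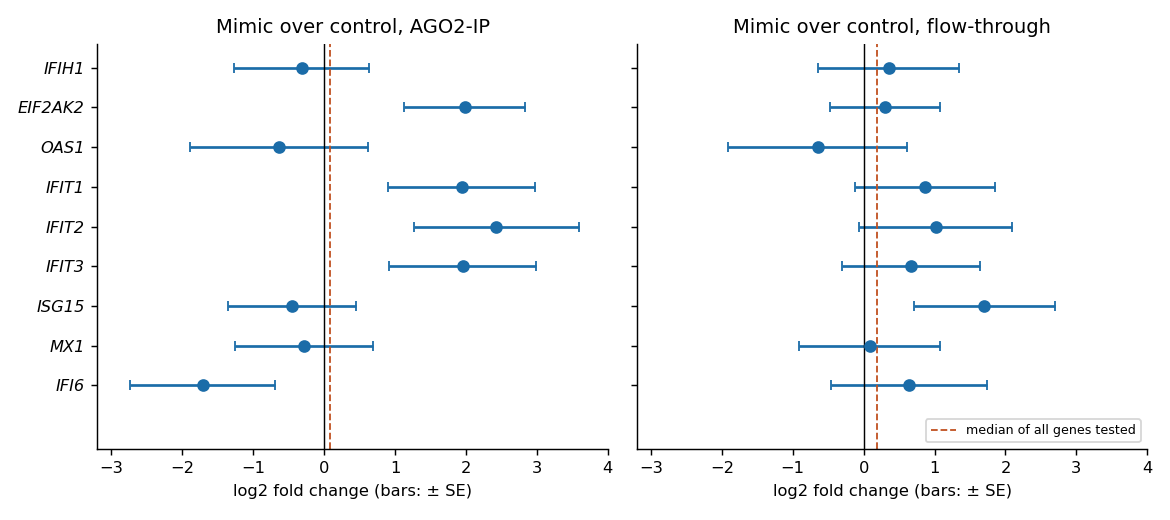
Log2 fold change of mimic over control (horizontal axes) for the 9 genes in the AGO2-IP (left) and the flow-through (right), with bars for ± 1 SE from the 6-library fit and a dashed line at the median of all genes tested. EIF2AK2, IFIT1, IFIT2 and IFIT3 lie between 1.94 and 2.42 in the AGO2-IP, and none of the 18 values passed the adjusted threshold.

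When both fractions were combined in a model with terms for fraction and treatment, 4 mimic libraries stood against 2 control libraries. By their labels the 4 mimic libraries come from 2 biological replicates, and the model has no term for replicate. It treats the 2 fractions of a replicate as independent, so its SE and p may overstate the replication. No member was called, and 0.173% of all genes were, all of them lower with the mimic. The log2 fold changes were 1.67 ± 0.827 for IFIT2, 1.38 ± 0.681 for IFIT1, 1.27 ± 0.723 for IFIT3 and 1.06 ± 0.593 for EIF2AK2 (SE), with adjusted p between 0.547 and 0.595. These 4 of 9 members were at least 2-fold higher, against 10.6% of all genes, and no member was 2-fold lower, against 9.95%. ISG15 had 0.49, and the other 4 members had values from -0.68 to -0.003. No member had an unadjusted p under 0.05 with edgeR and 2 did with DESeq2 (IFIT1 and IFIT2), against 10.1% and 12.9% of all genes. This outcome changed when single libraries were left out. Mimic flow-through replicate 2 was the only mimic library in which these 4 genes were below their control, so their values rose without it. In the edgeR fit without mimic flow-through replicate 2, IFIT1 (1.74), IFIT2 (2.11), IFIT3 (1.67) and EIF2AK2 (1.39) were all called higher. Their adjusted p were 0.0120, 0.0137, 0.0246 and 0.0433. Calls rose across all genes in that fit, with 654 of 12626 called higher (5.18%) and 1079 called lower. Without mimic flow-through replicate 1 instead, no member was called.

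Whether the mimic effect differed between the fractions was tested as an interaction. No gene of the 13319 was called (0%), and no member had an unadjusted p under 0.05 with edgeR or with DESeq2. The difference of the log2 fold changes, AGO2-IP minus flow-through, was largest in size for IFI6 (-2.36 ± 1.52, SE) and ISG15 (-2.16 ± 1.31), which leaned toward the flow-through. It was 1.68 ± 1.10 for EIF2AK2, 1.41 ± 1.47 for IFIT2, 1.28 ± 1.34 for IFIT3 and 1.08 ± 1.35 for IFIT1, which leaned toward the AGO2-IP. All 9 adjusted p were close to 1. The opposite lean of these groups was therefore not called. With 1 control library per fraction, the spread between control replicates is unknown, so this test cannot decide whether the lean is real.

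The mimic libraries also allow the AGO2-IP to be set against the flow-through with 2 libraries on each side. ISG15 had 29.9 and 7.77 normalised CPM in the AGO2-IP against 58.5 and 124 in the flow-through, and IFI6 had 0.892 and 0.416 against 2.74 and 3.66, so for both genes every AGO2-IP value was below every flow-through value. The same held for EIF2AK2, and for 28.1% of all genes, while every AGO2-IP value of IFIT1 was above every flow-through value, as for 28.5% of all genes. The log2 ratio of AGO2-IP over flow-through was -2.29 ± 0.773 for ISG15 (unadjusted p 0.0125, adjusted p 0.122) and -2.30 ± 0.861 for IFI6 (unadjusted p 0.0215, adjusted p 0.149). These 2 members reached an unadjusted p under 0.05 with edgeR, as did 3107 of all 13078 genes. IFIT3 had 1.18 ± 0.766 (adjusted p 0.362), IFIT2 0.86, IFIT1 0.80, and EIF2AK2 -0.92. No member was called in this fit of 13078 genes, of which 0.658% were called. One member (IFIT3) was at least 2-fold higher, against 20% of all genes, and 2 (ISG15 and IFI6) were at least 2-fold lower, against 26.9%.

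The replicate numbers of the mimic link an AGO2-IP and a flow-through of the same biological replicate, and with the replicate number as a block the result changed. ISG15 (-2.49, adjusted p 0.0368) and IFI6 (-2.36, adjusted p 0.0468) were then called lower in the AGO2-IP, with 9.67% of all genes called. DESeq2 without the block called ISG15 (-2.32, adjusted p 0.0216) and not IFI6 (adjusted p 0.0573), and it called 15.2% of all genes. Both genes have short transcripts of high GC content, 637 nucleotides and 64.2% for ISG15 and 812 nucleotides and 56.2% for IFI6, where the median GC content of the protein-coding genes tested was 48.0%. With each library's trend on GC content removed, the ratio of ISG15 was -0.9999 (adjusted p 0.326) and that of IFI6 -1.71 (adjusted p 0.156), and EIF2AK2, at 38.5% GC, was called lower at -1.70 (adjusted p 0.0496), with 6.23% of all genes called. With both the block and the GC correction, EIF2AK2 (-1.72), IFI6 (-1.79) and ISG15 (-1.27) were all called lower, with 25.8% of all genes called. Without mimic flow-through replicate 1, 5 of the 8 members tested were called: IFIT1 (2.11), IFIT2 (2.56) and IFIT3 (2.53) higher in the AGO2-IP and ISG15 (-2.78) and IFI6 (-2.54) lower, but 40.8% of all genes were called in that fit.

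The 2 replicates of the mimic differed for several members by as much as mimic differed from control. In the flow-through, replicate 1 exceeded replicate 2 by 2.51 log2 units for IFIT2, 2.10 for IFIT3, 2.05 for IFIT1, 1.90 for OAS1 and 1.08 for EIF2AK2, and fell short of it by values of -1.97 for MX1, -1.08 for ISG15 and -0.42 for IFI6. Apart from OAS1, the members in which replicate 1 was higher have transcripts of 38.5% to 44.4% GC, and those in which it was lower have 51.8% to 64.2%. In the AGO2-IP, replicate 1 was the higher for 8 of the 9 members, by up to 2.17 (OAS1) and 1.94 (ISG15), and MX1 was the exception at -0.30. Replicate 1 was the higher in both fractions for 6 members (IFIH1, EIF2AK2, OAS1, IFIT1, IFIT2 and IFIT3), against 29.6% of all genes. Across all genes the SD of the replicate difference was 1.42 in the flow-through and 0.822 in the AGO2-IP. The part of GC content in the values of the members was not tested beyond the correction given above.

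**Figure D3:**
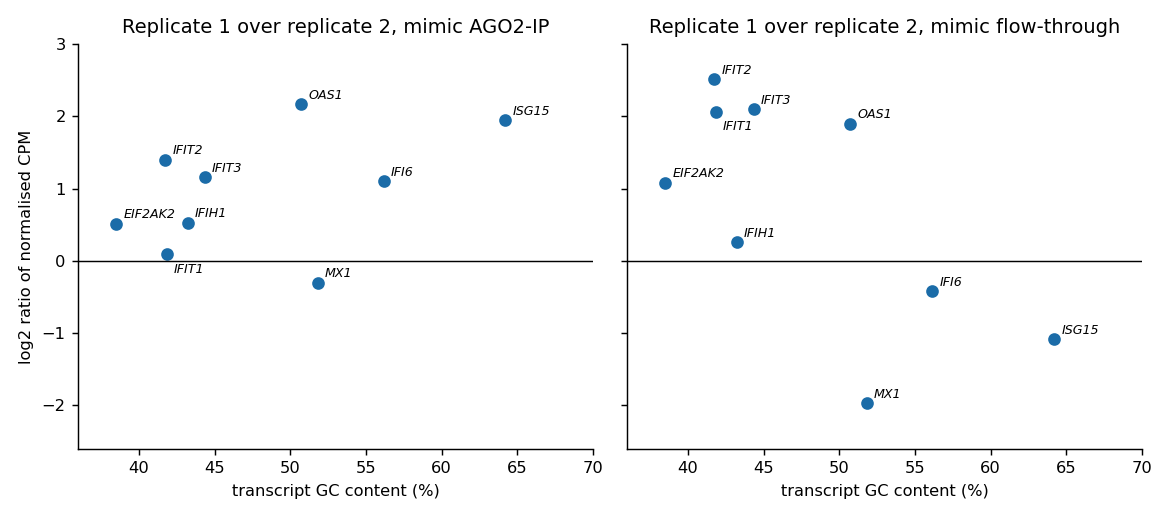
Log2 ratio of normalised CPM in mimic replicate 1 over replicate 2 (vertical axis) against the GC content of the canonical transcript (horizontal axis, %) for the 9 genes, in the AGO2-IP (left) and the flow-through (right). In the flow-through the IFIT genes and EIF2AK2, at 38.5% to 44.4% GC, lie above 0, and MX1, IFI6 and ISG15, at 51.8% to 64.2%, lie below it. OAS1, at 50.7% GC, lies above 0, at 1.90.

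The wider interferon pathway was read from a list of 94 other genes, namely sensors and their adaptors, ligands, receptors with their signalling proteins, genes that restrain the response and other induced genes. Of these, 74 were tested against the control, and edgeR called none in the AGO2-IP, the flow-through or both fractions combined. DESeq2 called 3 lower in the AGO2-IP and 6 lower with both fractions combined, where 88 and 228 of all 13319 genes were called lower. The median log2 fold change of the 74 pathway genes was 0.01 in either fraction, close to the medians of all genes (0.08 and 0.19). With both fractions combined, 8 were at least 2-fold higher and 13 at least 2-fold lower, against the 10.6% and 9.95% of all genes given above, and 14 had an unadjusted p under 0.05, against 10.1% of all genes. By group, the 14 sensor and adaptor genes tested had a median of 0.27, the 11 receptor and signalling genes -0.15, the 5 restraint genes 0.27 and the 44 other induced genes 0.02. Between the fractions of the mimic, edgeR called none of the 73 tested, of which 11 had an unadjusted p under 0.05, as did 3107 of all 13078 genes. DESeq2 called 2 higher in the AGO2-IP and 5 lower, where 15.2% of all genes were called in either direction. These pathway genes included SOCS1, a feedback inhibitor of JAK signalling, higher (adjusted p 0.000242 by DESeq2), and PRKRA, an activator of PKR, lower (adjusted p 0.0180). With the replicate block 2 were called higher and 1 lower (9.67% of all genes called), with GC correction 1 and 1 (6.23%), and with both 4 and 10 (25.8%). SOCS1 and PRKRA were chosen after their values were seen.

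The 3 highest values with both fractions combined were those of IFI44 (1.91 ± 1.01, adjusted p 0.570), CGAS (1.73 ± 0.551, adjusted p 0.382) and SAMD9 (1.495 ± 0.904, adjusted p 0.621). CGAS encodes the cytosolic DNA sensor that feeds STING, and its normalised CPM was 31.2, 32.2, 39.5 and 101 in the mimic libraries against 11.3 and 17.6 in the controls, without overlap. All 4 mimic libraries were above both controls for 6.27% of all genes. IFI44 had 18.9 and 3.45 in the mimic AGO2-IP against 1.86, and 8.35 and 1.51 in the mimic flow-through against 2.05. SAMD9, an antiviral factor that restricts poxviruses, had 18.5 and 9.90 against 2.78 in the AGO2-IP, and 23.8 and 2.80 against 7.70 in the flow-through. As for the IFIT genes, flow-through replicate 2 of IFI44 and SAMD9 was below the control.

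HLA-B and HLA-C, heavy chains of MHC class I that present peptides to T cells and are raised by interferon, were among the lowest values. HLA-B had 65.4 and 77.8 normalised CPM in the mimic AGO2-IP against 811 in the control, and 75.2 and 289.5 in the mimic flow-through against 567. HLA-C had 45.1 and 36.2 against 411.5, and 63.9 and 119.6 against 342. All mimic values were below all control values for both genes, as for 7.55% of all genes. The combined log2 fold changes were -2.67 ± 0.654 for HLA-B and -2.68 ± 0.506 for HLA-C (SE), with adjusted p of 0.257 and 0.151, and by DESeq2 both were called lower (adjusted p 0.00468 and 0.000302). These genes are near-identical in parts, and STAR counts only read pairs with 1 place of alignment, so their counts are uncertain.

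**Figure D4:**
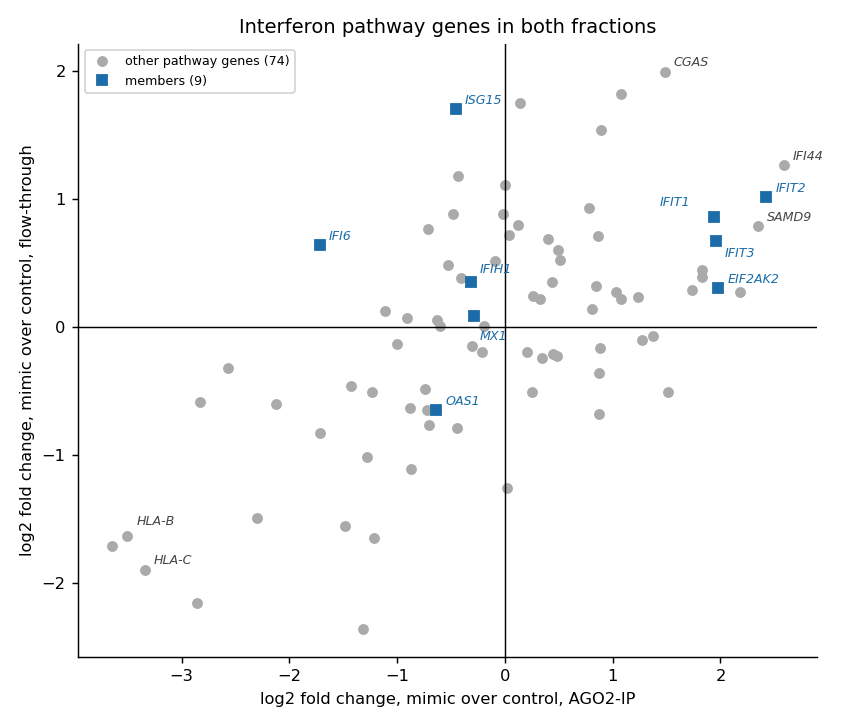
Log2 fold change of mimic over control in the AGO2-IP (horizontal axis) and in the flow-through (vertical axis) for the 9 members (blue squares) and the 74 other pathway genes tested (grey points). The IFIT genes and EIF2AK2 lie at 1.94 to 2.42 on the horizontal axis with IFI44 and SAMD9 nearby, and HLA-B and HLA-C lie at the lower left.

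The genes most like the members' mean profile over the 6 libraries were found by correlation. Each protein-coding gene's log2 CPM was set against the mean centred log2 CPM of the 9 members. Among the closest were LRATD1 (Pearson's r 0.991), MKRN2 (0.990), DZIP1 (0.987) and FEZF1 (0.986), and 105 of 11889 genes reached at least 0.9. The mean profile was highest in replicate 1 of both mimic fractions (0.64 in the flow-through and 0.42 in the AGO2-IP). It does not describe every member, since MX1, ISG15 and IFI6 were lower in replicate 1 than in replicate 2 of the flow-through (log2 ratios -1.97, -1.08 and -0.42). MKRN2, for example, had 49.1 and 32.0 normalised CPM in the mimic flow-through replicates and 40.8 and 26.4 in the AGO2-IP replicates, against 23.8 and 32.3 in the control AGO2-IP and flow-through.

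Because these are bulk libraries, more transcripts per cell and more cells with the transcript cannot be told apart for any of these genes. An AGO2-IP count also depends on how much of a transcript was pulled down. No pull-down with a control antibody (IgG) was among the libraries, so unspecific pull-down was not tested.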

How the data were processed

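Ago-RIP-seq libraries of MDA-MB-231 cells were analysed from the counts that the authors deposited. Per the study's methods and the submitters' processing notes, reads were checked with FastQC 0.11.9, trimmed with Cutadapt 3.5, aligned to GRCh38 with STAR 2.7.11b in two-pass mode with an Ensembl annotation (release not given in the sources used here) and counted with quant mode. The deposited values are whole, unnormalised counts of read pairs, unstranded and for each strand. The unstranded column was used, since 49.0% to 55.1% of stranded counts lay in column 3. STAR counts only uniquely placed pairs on 1 gene. Entries that name no gene held 21.4% to 47.2% of read pairs in mimic and 92.3% to 95.0% in control libraries and were left out. Of 60708 identifiers, 60463 were named through GENCODE 44, which also gave transcripts. Gene counts ran from 7772149 to 48544756 per library.

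Counts were fitted with edgeR 4.0.16 in R 4.3.3 (TMM, glmQLFit, glmQLFTest, summed count of at least 200, Benjamini-Hochberg over all genes): a 4-group fit of the 6 libraries (2 residual degrees of freedom), an additive fit of fraction and treatment (3) and a fit of the 4 mimic libraries (2). The SE is the log2 fold change divided by the square root of F. The control AGO2-IP over flow-through is a log2 ratio (prior count 2) with no test. A call needs an absolute log2 fold change of 1 and an adjusted p of 0.05. Scripts were tested on simulated counts with less spread than these data and with changes planted in no scarce gene. That test does not show whether a change in the members could be detected. Same-numbered mimic libraries come from the same biological replicate by their labels; their deviations from group means correlated at r = 0.295 over 13078 genes. Alternatives were DESeq2 1.42.0 and its size factors, library size alone, other filters, protein-coding genes, each strand, equal depth, a lowess GC correction (span 0.2), the replicate block, other control groupings and leaving out each library.

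The members and lists were chosen with earlier results of these data known. Besides the members, named genes are the 3 highest and 3 lowest pathway genes of the combined fit (none was called), the ligands by count, the 5 genes best correlated with the members, the cell line markers and AGO2. Some items that this rule names are not reported here.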

Additional observations from a re-analysis of the deposited data

Results flagged for a closer look

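IFI6 and IFIH1 stood on opposite sides of the control in the 2 fractions: with the mimic, both AGO2-IP libraries were below their control and both flow-through libraries above theirs. The difference of the log2 mimic over control ratios, AGO2-IP minus flow-through, was -2.36 ± 1.52 (SE) for IFI6 (unadjusted p 0.148) and -0.67 ± 1.37 for IFIH1 (unadjusted p 0.635), and the adjusted p from edgeR's interaction test was close to 1 for both. Of the 13319 genes tested, 1085 (8.15%) showed the same arrangement of libraries. Both genes were scarce, at 2.05 (IFI6) and 3.25 (IFIH1) normalised CPM in the control flow-through.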

How the results depend on the processing

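The alternative fits reuse the same 6 libraries and are not independent of each other. The main fits of mimic against control called no gene of 13319 higher, so a count of 0 cannot decide whether members rose. Of 83 alternative counts of members called, 77 were 0 as in the report. The exceptions were the AGO2-IP over flow-through comparison of the mimic, with 1 member called after GC correction, 1 with DESeq2, 2 with the replicate block and 3 with the replicate block and GC correction, and the counts with a library left out, which ran from 0 to 5 for that comparison (5 without mimic flow-through replicate 1) and from 0 to 4 for both fractions combined (4 without mimic flow-through replicate 2). No paired fit of mimic against control was made, since the control libraries share no pair of replicate numbers with the mimic.

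The members' median in the AGO2-IP (-0.29) was 0.21 with a summed count of at least 10, 0.37 with no count filter, 0.48 with GC correction, 0.052 with both controls as 1 group (7 members tested), 0.64 and 1.82 with strand columns 3 (8 members) and 4 (7), 1.81 at equal depth (6) and 1.86 with the 3 libraries of the fraction (7). Leaving out a library gave -0.32 to 0.81, and -0.078 to 0.71 for the flow-through median, the lowest without mimic flow-through replicate 1. Fewer members were tested where counts or libraries were removed.

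Of 428 alternative values of single members, 405 kept their sign. In the AGO2-IP, IFIH1, ISG15 and MX1 turned to 0.18, 0.054 and 0.21 with a summed count of at least 10, IFIH1, OAS1, ISG15 and MX1 to 0.35, 0.039, 0.22 and 0.37 with no filter, and ISG15 to 0.48 with GC correction. Leaving out a library gave -1.74 to 0.18 for ISG15 and -0.67 to 0.035 for OAS1, both highest without mimic AGO2-IP replicate 2. In the flow-through, MX1 turned to -0.22 with strand column 4, -0.16 with GC correction and -0.06 without mimic AGO2-IP replicate 2. Leaving out mimic flow-through replicates 1 and 2 gave -0.36 and 0.71 for EIF2AK2, -0.52 and 1.51 for IFIT1, -0.75 and 1.74 for IFIT2, -0.75 and 1.33 for IFIT3, and 0.74 and -1.25 for MX1. For AGO2-IP over flow-through, IFIH1 turned to 0.11 and 0.14 with the lower filters, OAS1 to 0.061 without mimic AGO2-IP replicate 2, and leaving out a library gave -0.011 to 2.56 for IFIT2 and -1.34 to 0.65 for MX1. The cause was not tested. Library size alone moved the flow-through median of all genes from 0.19 to 0.67. Depth limits OAS1 and IFI6, with 12 to 21 control read pairs each. It also limits IFIH1, which stood at 3.25 normalised CPM in the control flow-through.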
